A study of Mus musculus with 25 samples.

Results

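The mitosis and G2/M genes described here are 43 genes whose products carry a cell through G2, into mitosis and out of it: cyclins and Cdk1, mitotic kinases, spindle checkpoint and anaphase-promoting complex proteins, kinesins, centromere proteins and cytokinesis factors. Their members were all probe sets on 3 Affymetrix mouse chips (U74Av2, U74Bv2 and U74Cv2) whose single gene symbol in the platform annotation is on the list. Of the 43 genes, 41 had such a probe set, with 78 probe sets in all among 36701 on the chips, of which 49 lay on U74Av2, 14 on U74Bv2 and 15 on U74Cv2. Ccnb1, the cyclin B1 gene, and Hmmr, a spindle-associated protein, were not analysed here. A filter on dim probe sets (above the 40th percentile of the array on at least 3 arrays) was passed by 68 of the 78, which covered all 41 genes, and 65 of the 68 lay above it on all 3 wild type arrays.

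The RNA came from growing mouse myoblasts, the cultured progeny of satellite cells, the muscle stem cells of the adult. There were 3 genotypes, wild type, MyoD-/- and p53-/-, with 3 samples each, lettered A, B and C, measured on 25 arrays. All 3 genotypes were grown on collagen with 20% fetal calf serum and the growth factor bFGF at 4 ng/ml, after purification by preplating and serial passage to over 98% purity per the labels. The sources used here do not give mouse strain, age, the knockout alleles or the relation of the letters to mice or cultures, so every p-value measures the spread between these samples, which may be technical. MyoD is a transcription factor that commits cells to muscle, and p53 is a stress-activated transcription factor that can halt the cell cycle. The labels give TriZol extraction for all genotypes and a doubled extraction for p53-/-, and purity from desmin, Myf5 and MyoD in wild type against Myf5 and c-met in both knockouts, so extraction and purity check cannot be told apart from genotype.

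In a dividing cell the products of most of these genes accumulate from S phase and peak in G2 and mitosis. Cyclins A and B switch on Cdk1, which Wee1 restrains and the Cdc25 phosphatases release, Aurora and Polo-like kinases build the spindle, the Bub and Mad proteins hold anaphase until chromosomes are attached, and kinesins, Prc1, Ect2 and anillin divide the cell. Promoters of many such genes carry a CHR element and CCAAT boxes. The DREAM complex, which keeps these genes silent in resting cells, and the MMB complex, which drives them in G2, are known to act at CHR elements, and NF-Y binds CCAAT boxes. The p53 target Cdkn1a (p21) is known to feed into this system by inhibiting cyclin-dependent kinases.

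The 9 arrays of U74Av2 had median signals of 462 to 564, the 7 of U74Bv2 730 to 776, and the 9 of U74Cv2 455 to 546, where a signal is a MAS5 intensity on a linear scale. U74Av2 held the brightest tested probe set, by percentile, of 34 of the 37 genes followed in p53-/-. On this chip all wild type and p53-/- arrays shared 1 scan day and 1 chip lot, and only MyoD-/- A was scanned on another day. On U74Cv2 too, only MyoD-/- A was scanned on another day. Wild type arrays there were of lot 1, MyoD-/- B and C and p53-/- A of lot 2 (MyoD-/- A not recorded), and p53-/- B and C of lot 3. Lot and genotype therefore cannot be told apart on U74Cv2 against wild type. On U74Bv2 the lone p53-/- array shared its scan day with MyoD-/- B and C and with no wild type array. The p53-/- C arrays had the lowest median signal and the highest Gapdh 3' to 5' ratio of their chip types (0.879 on U74Av2 and 0.946 on U74Cv2). The genotype labels were checked at the targeted genes. Myod1 had a signal of 40932 ± 3930 (SD, n = 3) in wild type and 4843 ± 716 (SD, n = 3) in MyoD-/-, a log2 fold change of -3.07 ± 0.15 (SE, limma adjusted p = 3.06e-06). The sources used here do not say where its probes lie relative to the deletion. The p53 gene itself was not analysed here. In p53-/-, 10 of 17 genes that p53 switches on fell and 0 rose, Ccng1 from 6495 ± 1320 to 736 ± 54.1 (SD, n = 3). Of 9 myoblast genes, the purity markers among them, 7 fell and 1 rose in MyoD-/- and 6 fell and 1 rose in p53-/-. Des fell from 3669 ± 197 (SD, n = 3) in wild type to 195 ± 113 in MyoD-/- and 1383 ± 476 in p53-/-. Met, the c-met gene, fell in MyoD-/- (-1.41, adjusted p = 0.00015, on U74Bv2) and was not called in p53-/- (0.08, adjusted p = 0.872, on U74Av2). Myf5, which rose in both knockouts, stood at 726 ± 487 in wild type against 4331 ± 1469 in MyoD-/- and 5086 ± 898 in p53-/-. None of the 6 adipocyte markers passed the filter, 1 of 7 endothelial and 2 of 6 Schwann and neural markers did, and 5 of 10 macrophage and 6 of 12 fibroblast markers did, with 0 of them called in p53-/- against wild type.

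In growing myoblasts, p53-/- was compared with wild type to see which members differed between these samples. Myoblasts without p53 had more RNA for 17 of the 37 mitosis and G2/M genes that could be tested, among them the cytokinesis exchange factor Ect2 (2.01 times the wild type mean), survivin (Birc5, 2.34 times), topoisomerase II alpha (Top2a, 2.07 times), the condensin subunit Smc2 (2.29 times) and Cdk1 itself (1.75 times). A single gene fell, Wee1, the kinase that inhibits Cdk1, to 0.436 times wild type. The other 19 did not pass the test, and these included well-known markers of dividing cells. On the probe set that represents each gene, Mki67, Plk1 and Foxm1 differed by at most 0.05 on the log2 scale. Their other probe sets, given below, lay between -0.40 and 0.66, the latter from a lone p53-/- array, and none was called. The median log2 fold change over the 37 genes was 0.58, against -0.01 over all 9013 genes tested. A member counts as changed where limma's adjusted p, by Benjamini-Hochberg over the 15769 tested probe sets, was under 0.05, and each gene is represented by its brightest tested probe set by percentile. By this rule 6.06% of all genes tested were higher and 6.52% lower in p53-/-. Of 55 member probe sets, 19 were higher and 1 lower, where 10.1% of all probe sets were called in either direction. Of the 37 genes, 27 had all 3 p53-/- arrays above all 3 wild type arrays, which 17.6% of all genes tested had, and 3 had all of them below, which 16.9% of all genes had. The members' log2 fold changes lay above the median of all genes in 31 of 37 cases and above its 90th percentile in 19. In bulk RNA, more cells in G2 and mitosis and more RNA of these genes per cell cannot be told apart.

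**Figure D1:**
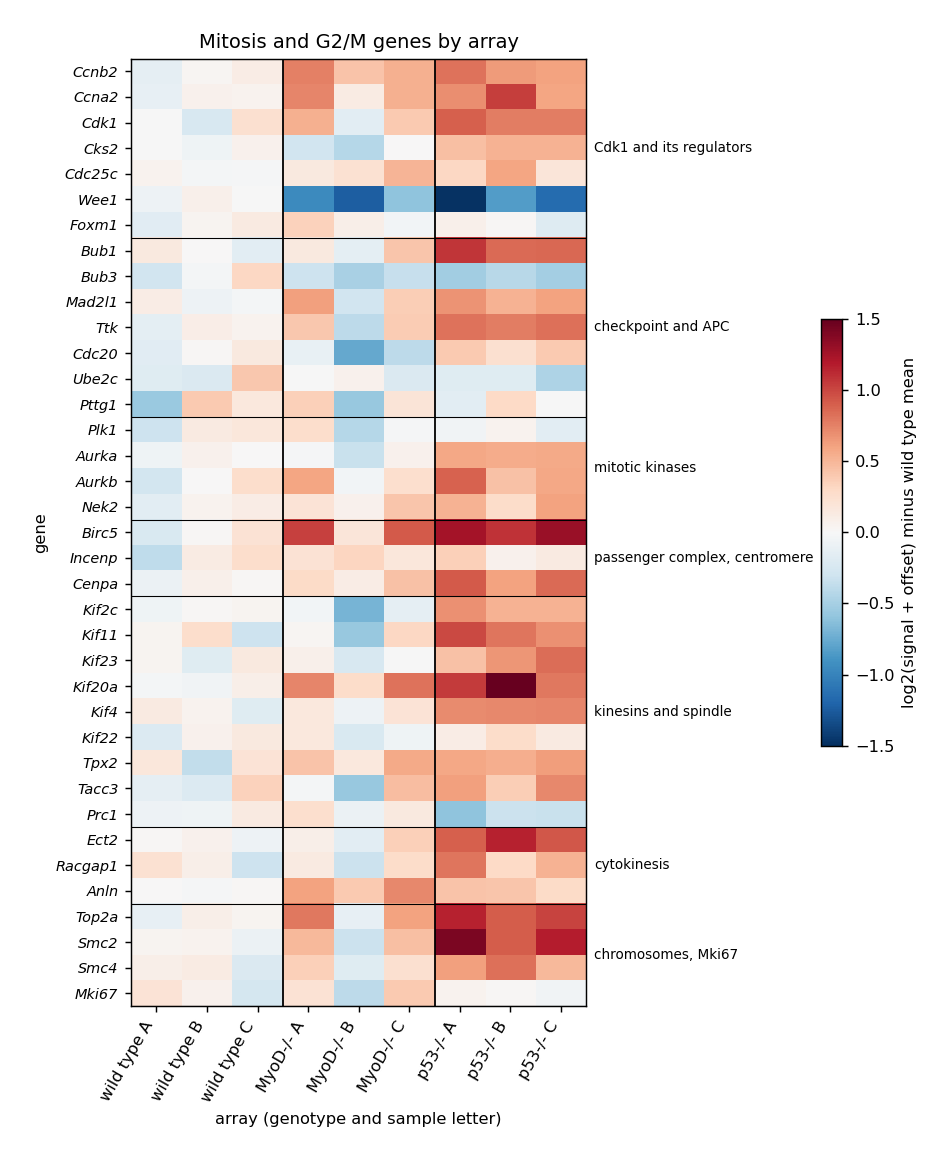
Each row is a mitosis and G2/M gene with arrays of all 3 genotypes on U74Av2 or U74Cv2 (37 genes), grouped by role, and each column an array; colour gives log2(signal + offset) minus the wild type mean, with values past 1.5 drawn at the end of the scale. The p53-/- columns are warm in most rows, with medians of 0.61, 0.52 and 0.58, Wee1 is blue in both knockouts, and MyoD-/- B is cooler than MyoD-/- A and C.

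To show the sequences behind the strongest calls, the promoters of the 4 members with the smallest adjusted p that are in the RefSeq promoter table (assembly GRCm38.p6, 250 bases before to 50 after the start) are shown, 5' to 3' on the gene's strand. They are Ect2 (chr3:27153805-27154104, minus strand, the first of its 2 overlapping windows), Ccnb2 (chr9:70421505-70421804, minus strand), Bub1 (chr2:127831810-127832109, minus strand) and Birc5 (chr11:117848987-117849286, plus strand). Capitals mark matches to the CHR motif, searched as TTTGAA and its reverse complement TTCAAA, and to CCAAT and its reverse complement ATTGG.
Ect2: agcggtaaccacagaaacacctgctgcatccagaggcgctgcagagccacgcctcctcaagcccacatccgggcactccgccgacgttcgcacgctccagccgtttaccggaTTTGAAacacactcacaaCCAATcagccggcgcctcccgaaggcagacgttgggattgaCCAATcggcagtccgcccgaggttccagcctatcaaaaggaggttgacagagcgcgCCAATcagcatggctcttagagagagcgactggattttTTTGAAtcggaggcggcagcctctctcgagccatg
Ccnb2: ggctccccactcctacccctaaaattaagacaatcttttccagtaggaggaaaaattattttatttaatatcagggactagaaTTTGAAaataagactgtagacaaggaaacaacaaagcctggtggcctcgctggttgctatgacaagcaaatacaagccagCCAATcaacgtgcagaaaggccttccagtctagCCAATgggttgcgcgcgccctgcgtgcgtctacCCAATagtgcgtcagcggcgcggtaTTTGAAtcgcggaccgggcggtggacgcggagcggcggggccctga
Bub1: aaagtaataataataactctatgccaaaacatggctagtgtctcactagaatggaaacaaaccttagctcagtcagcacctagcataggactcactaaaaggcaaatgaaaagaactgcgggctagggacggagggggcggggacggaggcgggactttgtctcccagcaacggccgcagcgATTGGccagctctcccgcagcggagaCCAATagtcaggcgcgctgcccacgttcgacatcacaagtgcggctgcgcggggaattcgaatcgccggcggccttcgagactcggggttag
Birc5: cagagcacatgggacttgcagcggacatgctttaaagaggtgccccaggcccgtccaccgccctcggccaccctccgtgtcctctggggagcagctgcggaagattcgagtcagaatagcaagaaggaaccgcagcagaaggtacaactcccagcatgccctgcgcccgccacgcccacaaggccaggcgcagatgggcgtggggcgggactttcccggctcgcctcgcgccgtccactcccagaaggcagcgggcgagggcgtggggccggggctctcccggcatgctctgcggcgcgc
Ect2 and Ccnb2 each held 2 CHR and 3 CCAAT matches, with a CHR match just after the start (at 16 in Ect2 and 5 in Ccnb2, counted from the start). Bub1 held 2 CCAAT matches, at -68 and -42, and no CHR match, and Birc5 held neither motif in this window. The search was for exact letters, so near matches, such as ttcgaa in the Bub1 window, were not counted.

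A promoter window was given for 34 of the 43 genes. A CHR match was present in 24 of the 34 (70.6%), against 20.2% of all 27025 genes with a window and 14.6% of the genes tested here. A CCAAT match was present in 28 (82.4%), against 41.1% of all genes, and both in 22 (64.7%), against 7.97%. Of the 14 members with a window that rose in p53-/-, 11 (78.6%) had a CHR match, 13 (92.9%) a CCAAT match and 11 (78.6%) both. Of the 14 not called, 10 (71.4%) had a CHR match, 9 (64.3%) a CCAAT match and 8 (57.1%) both. These shares describe letters in a window and were not tested.

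Among the cyclins, Cdk1 and the enzymes that set its activity, 4 of 7 genes rose in p53-/- and 1 fell. Cdk1 gave 7091, 6058 and 8485 in wild type A, B and C, against 13403, 12250 and 12193 in p53-/-. The genotypes did not overlap, and the log2 fold change was 0.81 ± 0.18 (SE, limma adjusted p = 0.0184). Leaving out wild type A (adjusted p = 0.0594), wild type B (0.0697), p53-/- A (0.0693) or p53-/- C (0.0522) ended that call. Ccnb2, a B-type cyclin that binds Cdk1 in mitosis, gave 8577, 9565 and 10146 against 16616, 14717 and 14314, also without overlap (0.69 ± 0.12, adjusted p = 0.00609). Ccna2, the cyclin of S phase and G2, gave 4148, 4741 and 4702 against 7380, 9341 and 6849 (0.78 ± 0.17, adjusted p = 0.0179), and its call was lost without wild type A (0.0686) or p53-/- B (0.0587). Cks2, a small Cdk1-binding subunit, had a log2 fold change of 0.50 ± 0.12 (adjusted p = 0.0291), and its call was lost on leaving out any 1 of the 6 arrays (0.052 to 0.0988). Wee1 moved the other way, from 1735, 1935 and 1819 to 612, 992 and 787. All p53-/- arrays lay below all wild type arrays, and Wee1 fell by 1.16 ± 0.20 on the log2 scale (adjusted p = 0.00588). The phosphatase Cdc25c, which opposes Wee1, had a log2 fold change of 0.36 ± 0.15 (adjusted p = 0.176) and a second probe set at 0.58 (adjusted p = 0.122).

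Foxm1, a transcription factor of G2/M genes, did not change by its brightest probe set. That probe set, 98306_g_at, gave 6117, 7100 and 7609 in wild type and 7287, 6972 and 6043 in p53-/-, ranges that overlapped (-0.04 ± 0.14, adjusted p = 0.919). A dimmer one, 98305_at, stood at 0.30 (adjusted p = 0.539). On U74Bv2 another, 107523_at, read 4692 on the lone p53-/- array against 2912, 2926 and 2879 in wild type (0.66, adjusted p = 0.123), so its probe sets did not point to 1 value.

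The mitotic kinases were split. Aurka, which matures the spindle poles, gave 2546, 2791 and 2685 in wild type and 4042, 3965 and 3989 in p53-/- (0.57 ± 0.13, adjusted p = 0.0218). Ttk (Mps1), the kinase that starts checkpoint signalling, gave 1221, 1472 and 1414 against 2449, 2375 and 2467 (0.80 ± 0.20, adjusted p = 0.0312). Neither overlapped, but both calls were lost on leaving out any 1 of the 6 arrays, with adjusted p of 0.0519 to 0.0781 for Aurka and 0.0644 to 0.106 for Ttk. Bub1, a kinase of the checkpoint at kinetochores, gave 1790, 1626 and 1441 against 3472, 2961 and 2997 (0.93 ± 0.16, adjusted p = 0.00619). Its dimmer probe set 97095_at was also called (0.91, adjusted p = 0.028), a call lost on leaving out any 1 of the 6 arrays but p53-/- B (0.0583 to 0.0911), and 162264_s_at was not called (0.51, adjusted p = 0.482). Plk1, the Polo-like kinase, gave 3915, 5349 and 5463 in wild type and 4683, 5022 and 4348 in p53-/-. Those ranges overlapped (-0.05 ± 0.19, adjusted p = 0.908), and its probe sets 161292_f_at (0.00, adjusted p = 0.997) and 93099_f_at (-0.32, adjusted p = 0.414) were not called either. Nek2, a centrosome kinase, was at 0.47 ± 0.15 (adjusted p = 0.0698).

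Aurkb is the kinase of the chromosomal passenger complex, which corrects faulty chromosome attachments. Its signals of 1810, 2220 and 2673 in wild type and 4136, 3009 and 3340 in p53-/- did not overlap, yet it missed the threshold (0.63 ± 0.20, adjusted p = 0.071). On U74Cv2 its probe set 168330_f_at pointed the other way (-0.36, adjusted p = 0.244). Birc5, the survivin subunit of the same complex, gave 1708, 2035 and 2361 against 4901, 4348 and 5054, more than doubling its mean signal without overlap (1.21 ± 0.21, adjusted p = 0.00623). Incenp, the scaffold of the complex, had a log2 fold change of 0.19 (adjusted p = 0.583) on its brightest probe set, and 0.00 (104468_at) and 0.36 (93758_at) on its others. Cenpa, the histone that marks centromeres, rose from 1265, 1427 and 1366 to 2614, 2081 and 2492 (0.79 ± 0.14, adjusted p = 0.00688).

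Of the 7 spindle checkpoint and anaphase genes, Bub1 and Ttk rose and 5 did not pass the test. Mad2l1, which binds Cdc20 until chromosomes attach, gave 4452, 3882 and 4019 in wild type and 6617, 5908 and 6290 in p53-/- (0.60 ± 0.20, adjusted p = 0.082). Cdc20, the activator of the anaphase-promoting complex, was at 0.34 ± 0.16 (adjusted p = 0.213), and the complex's conjugating enzyme Ube2c at -0.27 ± 0.19 (adjusted p = 0.406). Bub3, the partner of Bub1, had the lowest log2 fold change of the group, with 8299, 9907 and 12549 against 7042, 7552 and 7071 (-0.48 ± 0.14, adjusted p = 0.0615). Securin (Pttg1), which holds separase inactive until anaphase, depended on the probe set. On U74Av2, 101027_s_at gave 3988, 4025 and 4969 against 8210, 8441 and 7690 (0.90 ± 0.14, adjusted p = 0.0029), and on U74Cv2 the brighter 169513_i_at gave 6315, 12303 and 10426 against 8335, 11468 and 9253 (0.04 ± 0.29, adjusted p = 0.955). The first groups lay apart and the second overlapped throughout. Suffixes s and f mark probe sets whose probes can match several transcripts, so those readings may include related genes.

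Of the 9 kinesins and spindle proteins tested, 4 rose in p53-/-. Kif4, a chromosome-bound kinesin that shapes the anaphase midzone, gave 1868, 1755 and 1485 in wild type and 2820, 2828 and 2853 in p53-/- (0.72 ± 0.14, adjusted p = 0.00857). Kif11 (Eg5), which pushes spindle poles apart, had a log2 fold change of 0.83 ± 0.23 (adjusted p = 0.0435), a call lost on leaving out any 1 of the 6 arrays (adjusted p of 0.0529 to 0.137). Kif23, the kinesin of the centralspindlin complex, rose by 0.65 ± 0.15 (adjusted p = 0.0202) on 96168_at. Its U74Cv2 probe sets were not called, at 0.29 (129059_at, adjusted p = 0.332) and -0.08 (170966_r_at, adjusted p = 0.899), and leaving out wild type A (0.0576) or B (0.0797) or p53-/- B (0.0532) or C (0.0733) ended the call. Kif20a, a kinesin of the late midzone, gave 2640, 6317 and 2190 in p53-/- on 161856_f_at against 1213, 1188 and 1321 in wild type (1.38 ± 0.32, adjusted p = 0.0229). Array B stood far above the other two, and the call was lost without any 1 wild type array (adjusted p of 0.0516 to 0.0699). A second probe set of Kif20a, 160501_at, was not called (0.44 ± 0.18, adjusted p = 0.162).

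The remaining spindle genes did not pass the test. Kif2c (0.58 ± 0.17, adjusted p = 0.0575), which removes wrongly attached microtubules, and the spindle assembly factors Tpx2 (0.58, adjusted p = 0.184) and Tacc3 (0.57, adjusted p = 0.194) were at values close to the median of all members. Kif22, a chromosome-arm kinesin, was at 0.17 (adjusted p = 0.487). Prc1, which bundles microtubules of the midzone, had the lowest log2 fold change of the group, with 5088, 5141 and 5910 in wild type and 3512, 4292 and 4229 in p53-/-. These did not overlap, and the test was missed (-0.42 ± 0.14, adjusted p = 0.0786).

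Ect2, the exchange factor that activates RhoA at the division plane, had the smallest adjusted p of all members. Wild type arrays gave 3725, 3848 and 3503 and p53-/- arrays 6901, 8267 and 7097, so the lowest p53-/- array stood well above the highest wild type array (0.99 ± 0.15, adjusted p = 0.00273). Its partner Racgap1 was at 0.54 ± 0.21 (adjusted p = 0.13), and anillin (Anln), the scaffold of the contractile ring, at 0.38 ± 0.11 (adjusted p = 0.058) with 7090, 6959 and 7110 against 9481, 9432 and 8653. The Anln probe set on U74Cv2, 134014_at, stood at 0.49 (adjusted p = 0.0909). Of the genes of chromosome structure, Top2a, which untangles sister DNA, gave 2328, 2691 and 2605 against 5730, 4835 and 5181 (1.03 ± 0.21, adjusted p = 0.0117). Smc2 gave 3450, 3488 and 3164 against 9059, 6363 and 7690 on 97421_at (1.16 ± 0.21, adjusted p = 0.00709). Its dimmer U74Cv2 probe sets pointed the same way without a call (0.71, adjusted p = 0.184 on 134085_at, and 0.86, adjusted p = 0.309 on 165854_r_at). Smc4, the partner of Smc2 in condensin, rose by 0.64 ± 0.16 (adjusted p = 0.0315), and leaving out wild type A (0.068), B (0.0573) or C (0.101), or p53-/- A (0.0833) or B (0.0966), ended that call. The proliferation antigen Mki67 gave 4026, 3642 and 2897 in wild type and 3618, 3541 and 3373 in p53-/-, which overlapped (0.01 ± 0.20, adjusted p = 0.989), and its dim probe set 161931_r_at stood at -0.40 (adjusted p = 0.309).

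**Figure D2:**
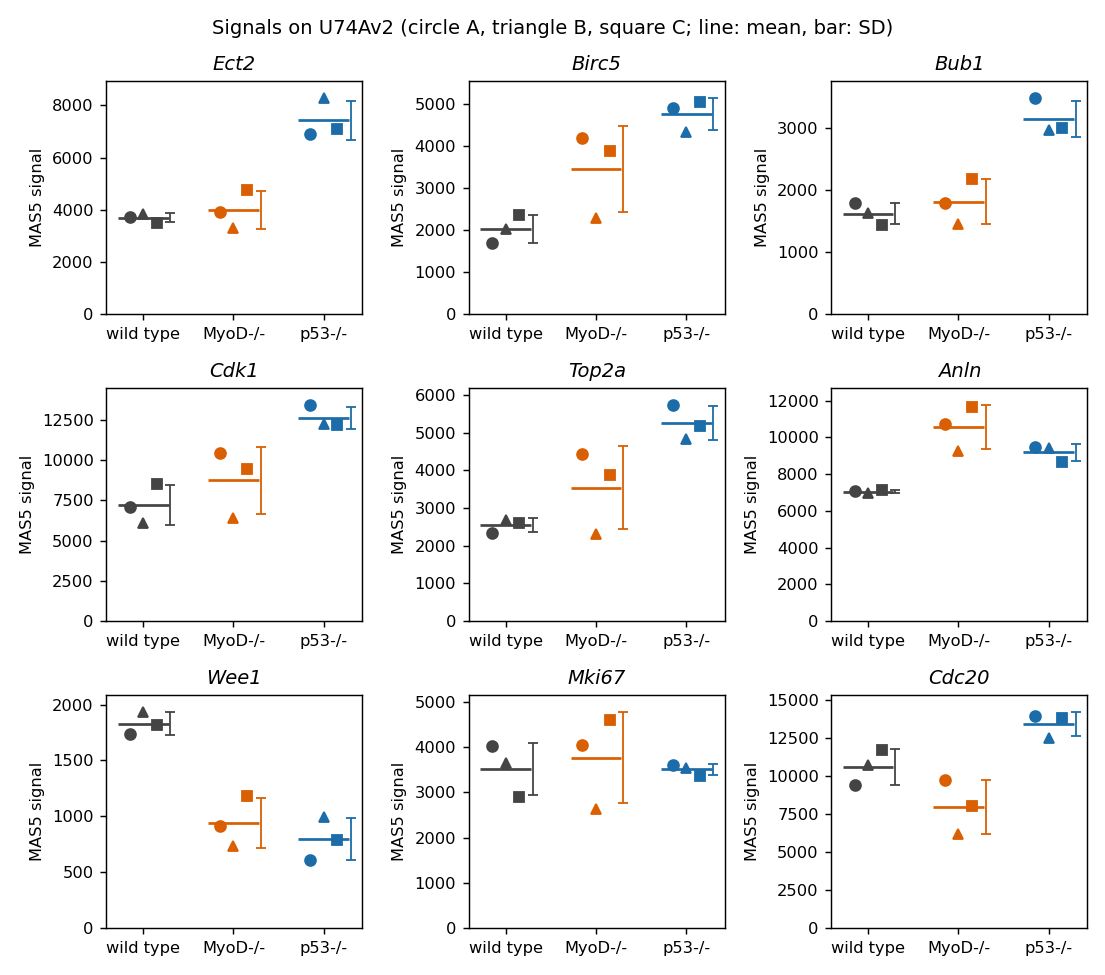
MAS5 signal on U74Av2 for 9 of the genes in wild type, MyoD-/- and p53-/- (symbols mark samples A, B and C, the line the mean and the bar 1 SD, n = 3). In p53-/- all arrays of Ect2, Birc5, Bub1, Cdk1 and Top2a lie above all wild type arrays, and Wee1 is lower in both knockouts. Anln has its highest mean in MyoD-/-, with arrays that overlap those of p53-/-, and Mki67 overlaps across the genotypes.

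Leaving out 1 wild type or p53-/- sample lowered the count of members that rose in p53-/-. It came to 8, 9 and 11 without wild type A, B and C and to 11, 10 and 11 without p53-/- A, B and C. The median log2 fold change was between 0.54 and 0.61. Without MyoD-/- B, Anln, Kif2c and Mad2l1 gained a call in p53-/- against wild type (limma adjusted p = 0.0469, 0.016 and 0.0151). Shares of all genes called in these fits are not given here. Of the 17 genes that rose, 8 kept their call under all 21 alternatives (Birc5, Bub1, Ccnb2, Cenpa, Ect2, Kif4, Smc2 and Top2a), as did Wee1.

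Bub1b, Cdc25b, Cenpe and Cenpf had tested probe sets on U74Bv2 alone, where p53-/- had a single array, so their p53-/- values rest on sample A and on the assumption that it varies like the other groups. Cenpe, the kinesin of kinetochores, gave 4198, 4427 and 3866 in wild type and 9478 on the p53-/- array, and was called in that fit (1.16 ± 0.26, limma adjusted p = 0.0438). With scan day as a block, which links wild type and p53-/- only through MyoD-/- arrays, that call was lost (1.41 ± 0.40, adjusted p = 0.164). Bub1b (BubR1), the checkpoint protein that binds Cdc20, gave 3136, 2913 and 3680 against 7056 (1.09 ± 0.36, adjusted p = 0.135). Cenpf, a kinetochore protein of G2 and mitosis, gave 3425, 4464 and 4713 against 7185 (0.77 ± 0.25, adjusted p = 0.127). In all of these the p53-/- array was above the wild type arrays, while Cdc25b, with 4691 against 5244, 4102 and 5623, lay among them. Of the genes also present on other chips, Smc2 (0.43), Tpx2 (0.39 and 0.72), Tacc3 (0.07), Bub3 (-0.27) and Prc1 (-0.59) had the same sign as there, none of them called, and Incenp gave -0.01 on 113149_at and 0.97 on 164272_at.

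MyoD-/- was compared with wild type in the same genes, and few of them differed. Anillin (Anln) rose to 1.5 times and Ccnb2 to 1.49 times their wild type means, and Wee1 fell to 0.515 times. The other 38 of 41 members did not pass the test, and the median log2 fold change was 0.13, against 0.00 over all 12058 genes tested. Among all genes tested, 6.15% were higher and 6.83% lower, and 10.6% of all probe sets were called, against 4 higher and 2 lower of 68 member probe sets. In 6 of 41 members all MyoD-/- arrays lay above all wild type arrays, as did 15.3% of all genes tested. The members' shares called are near or below the background shares.

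Anln gave 7090, 6959 and 7110 in wild type and 10733, 9284 and 11660 in MyoD-/-. The genotypes lay apart, with a log2 fold change of 0.57 ± 0.11 (adjusted p = 0.00846), and its U74Cv2 probe set, with MyoD-/- B and C of another lot than wild type, was called as well (0.96 ± 0.17, adjusted p = 0.00409). Ccnb2 gave 8577, 9565 and 10146 against 15906, 12640 and 13666 (0.57 ± 0.12, adjusted p = 0.0126), a call lost without wild type A (0.0521). Wee1 gave 1735, 1935 and 1819 against 911, 738 and 1180, all below wild type, and fell by 0.93 ± 0.20 on the log2 scale (adjusted p = 0.0141), and leaving out wild type B (0.0571) or MyoD-/- B (0.0576) ended that call. Cdk1 gave 10409, 6413 and 9409 in MyoD-/-, overlapping wild type (0.26 ± 0.18, adjusted p = 0.446). Birc5 gave 4191, 2294 and 3879, with B inside the wild type range (0.71 ± 0.21, adjusted p = 0.0608). Top2a gave 4429, 2322 and 3880, with B just below the lowest wild type array (0.42 ± 0.21, adjusted p = 0.256). Aurkb (0.27, adjusted p = 0.482), Foxm1 (0.13, adjusted p = 0.661), Mki67 (0.07, adjusted p = 0.879) and Plk1 (-0.06, adjusted p = 0.89) were not called. A second Plk1 probe set, 161292_f_at, was called lower (-0.67 ± 0.16, adjusted p = 0.0242), with 2135, 1605 and 1674 against 2559, 3182 and 2954. That call was lost without MyoD-/- B (0.0875) or C (0.0798), or wild type B (0.0985) or C (0.0662). The Pttg1 probe set 101027_s_at was called higher (0.56 ± 0.14, adjusted p = 0.0235) while 169513_i_at was not (0.00, adjusted p = 0.997), and the first call was lost without MyoD-/- A (0.0641) or C (0.0679), or wild type A (0.0864) or B (0.0951). Incenp, Kif22, Kif23, Mki67, Smc2, Tacc3 and Tpx2 had uncalled probe sets of both signs.

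Within MyoD-/- sample B stood apart from A and C in these genes. MyoD-/- B was the lowest of the 3 in 33 of 37 members (89.2%), against 34.8% of all genes, and also in 38 of 44 genes of G1/S and DNA replication (86.4%) and in 30 of 47 further mitosis genes (63.8%). The members' median per array, as log2 difference from the wild type mean, was 0.21 in MyoD-/- A, -0.16 in B and 0.31 in C, while wild type arrays lay between -0.07 and 0.07 and p53-/- arrays between 0.52 and 0.61. The median SD of a member over 3 arrays was 0.28 in MyoD-/-, against 0.16 in wild type and 0.14 in p53-/-, where over all genes it was 0.23, 0.21 and 0.22. Without MyoD-/- B, 5 members were higher than wild type and 0 lower, with a median of 0.28, and Birc5 (0.97, adjusted p = 0.00732), Top2a (0.69, adjusted p = 0.019) and Ccna2 (0.63, adjusted p = 0.0458) were then called. The shares of all genes called in this fit and the next are not given here, so these counts have no background beside them. With scan day as a block the median was 0.04, and 2 members were higher and 2 lower, Cdc20 joining Wee1 (-0.58, adjusted p = 0.0397). On U74Av2 and U74Cv2 MyoD-/- A was the only array of its scan day. There the block amounts to leaving that array out, which also gave -0.58 for Cdc20. The median signal of MyoD-/- B was 529 on U74Av2, below the 556 and 560 of A and C, and its Gapdh 3' to 5' ratio was 0.798. Their part in the result was not tested.

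**Figure D3:**
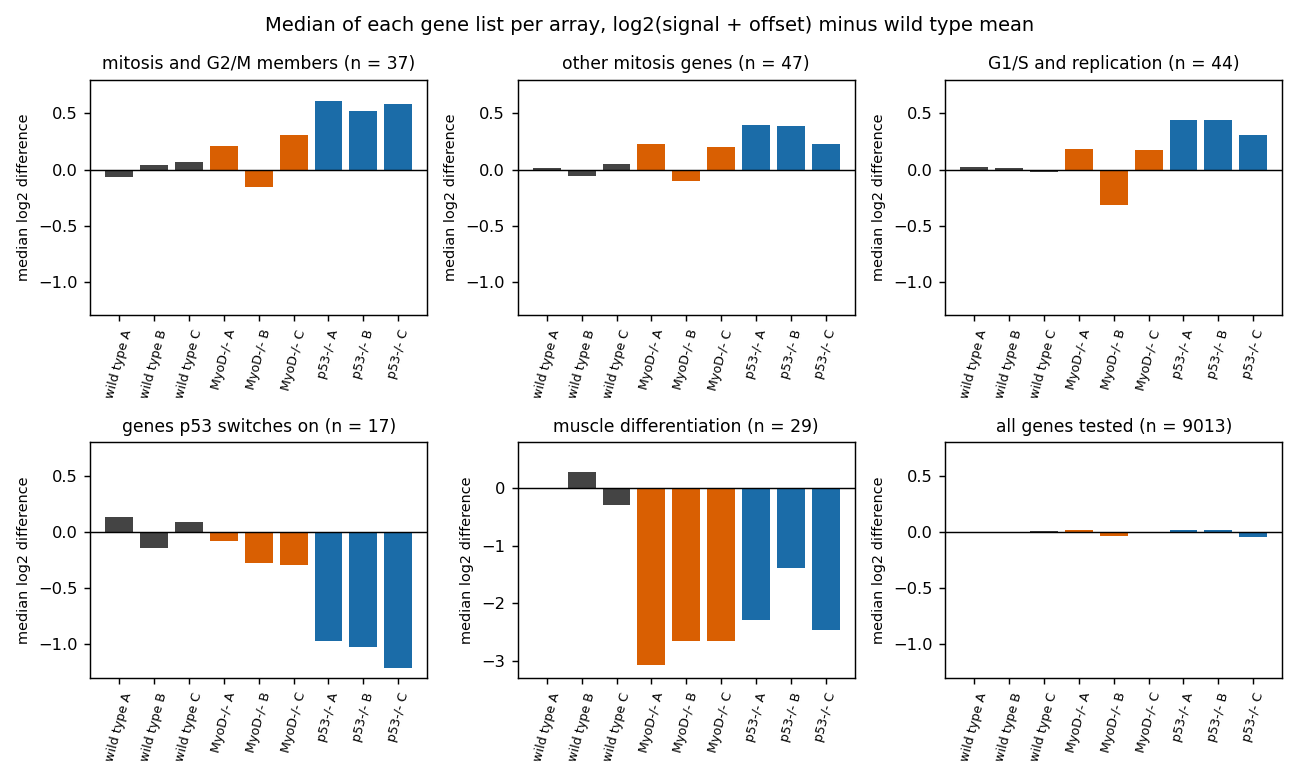
Bars give, for each array, the median over a gene list of log2(signal + offset) minus the wild type mean (wild type grey, MyoD-/- orange, p53-/- blue; the muscle differentiation panel has a longer axis). The members stand at 0.61, 0.52 and 0.58 in p53-/- and at -0.16 in MyoD-/- B, and the median of all genes stays between -0.04 and 0.02.

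The 2 knockouts were compared directly, because both comparisons with wild type use the same wild type arrays. MyoD-/- had less RNA than p53-/- for 11 of 37 members, more for 1 (Prc1), and 25 did not pass the test. The 11 were Ect2, Cks2, Kif2c, Aurka, Bub1, Cdc20, Kif23, Kif4, Smc2, Kif11 and Cenpa, and p53-/- exceeded MyoD-/- by 1.86 times in Ect2 and 1.82 times in Kif2c. The median log2 fold change of MyoD-/- over p53-/- was -0.50, against 0.00 over all genes. Among all genes tested 8.44% were lower and 7.66% higher in MyoD-/-, and 13.0% of all probe sets were called, against 12 lower and 1 higher of 55 member probe sets. In 17 of 37 members all MyoD-/- arrays lay below all p53-/- arrays, against 18.5% of all genes tested. The order of means wild type, MyoD-/-, p53-/- from low to high was found in 19 of 37 members (51.4%), against 16.1% of all genes, as a description.

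Ect2 gave 3912, 3290 and 4760 in MyoD-/- and 6901, 8267 and 7097 in p53-/- (-0.90 ± 0.15, limma adjusted p = 0.00314). Cks2 gave 6099, 5533 and 7466 against 10218, 10683 and 10684 (-0.73 ± 0.12, adjusted p = 0.00376). Aurka (-0.67 ± 0.13, adjusted p = 0.00824) and Bub1 (-0.79 ± 0.16, adjusted p = 0.0103) also did not overlap between the knockouts. Kif2c and Cdc20 had not passed the test in p53-/- against wild type and were lower in MyoD-/- than in p53-/-. Kif2c gave 2301, 1427 and 2149 against 3836, 3430 and 3436 (-0.87 ± 0.17, adjusted p = 0.00784), and Cdc20 gave 9763, 6195 and 8025 against 13950, 12537 and 13856 (-0.77 ± 0.16, adjusted p = 0.0103). Both groups of arrays lay apart. Kif23 was at -0.70 ± 0.15 (adjusted p = 0.0108), and its U74Cv2 probe set 129059_at at -0.54 (adjusted p = 0.0648). Kif4 (-0.62 ± 0.14, adjusted p = 0.013) lost its call without MyoD-/- B (0.0518), and Smc2 (-0.96 ± 0.21, adjusted p = 0.0142) without p53-/- A (0.058). Kif11 (-0.90 ± 0.23, adjusted p = 0.0259) lost its call without MyoD-/- B (0.076) or any 1 p53-/- array (0.0528 to 0.0882). Cenpa (-0.51, adjusted p = 0.0404) and Prc1 (0.52, adjusted p = 0.0298) were the calls most often lost. That of Cenpa was lost on leaving out any 1 array but MyoD-/- C and p53-/- B (0.0528 to 0.138), and that of Prc1 without MyoD-/- A or C or p53-/- A or C (0.0562 to 0.114).

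Anln and Ccnb2, which rose in MyoD-/-, did not pass the test between the knockouts (0.19 ± 0.11, adjusted p = 0.312, and -0.12 ± 0.12, adjusted p = 0.609), nor did Wee1 (0.23 ± 0.20, adjusted p = 0.541). On U74Cv2 the Anln probe set 134014_at gave 6899, 6588 and 7953 in MyoD-/- against 5339, 4520 and 5467 in p53-/-. Those arrays did not overlap, and it was not called (0.48, adjusted p = 0.0888). Cdk1 (-0.55 ± 0.18, adjusted p = 0.0733), Top2a (-0.60, adjusted p = 0.0852), Birc5 (-0.50, adjusted p = 0.163), Aurkb (-0.37, adjusted p = 0.279), Foxm1 (0.16, adjusted p = 0.524), Mki67 (0.06, adjusted p = 0.887) and Plk1 (-0.01, adjusted p = 0.987) were not called. Plk1 161292_f_at was called lower in MyoD-/- than in p53-/- (-0.67, adjusted p = 0.0213). That call was lost without MyoD-/- B (0.0785) or C (0.0667) or p53-/- B (0.0708). Without MyoD-/- B the median of the 37 members came to -0.24, and 8 members were lower. The share of all genes called in that fit is not given here, so this count has no background beside it.

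**Figure D4:**
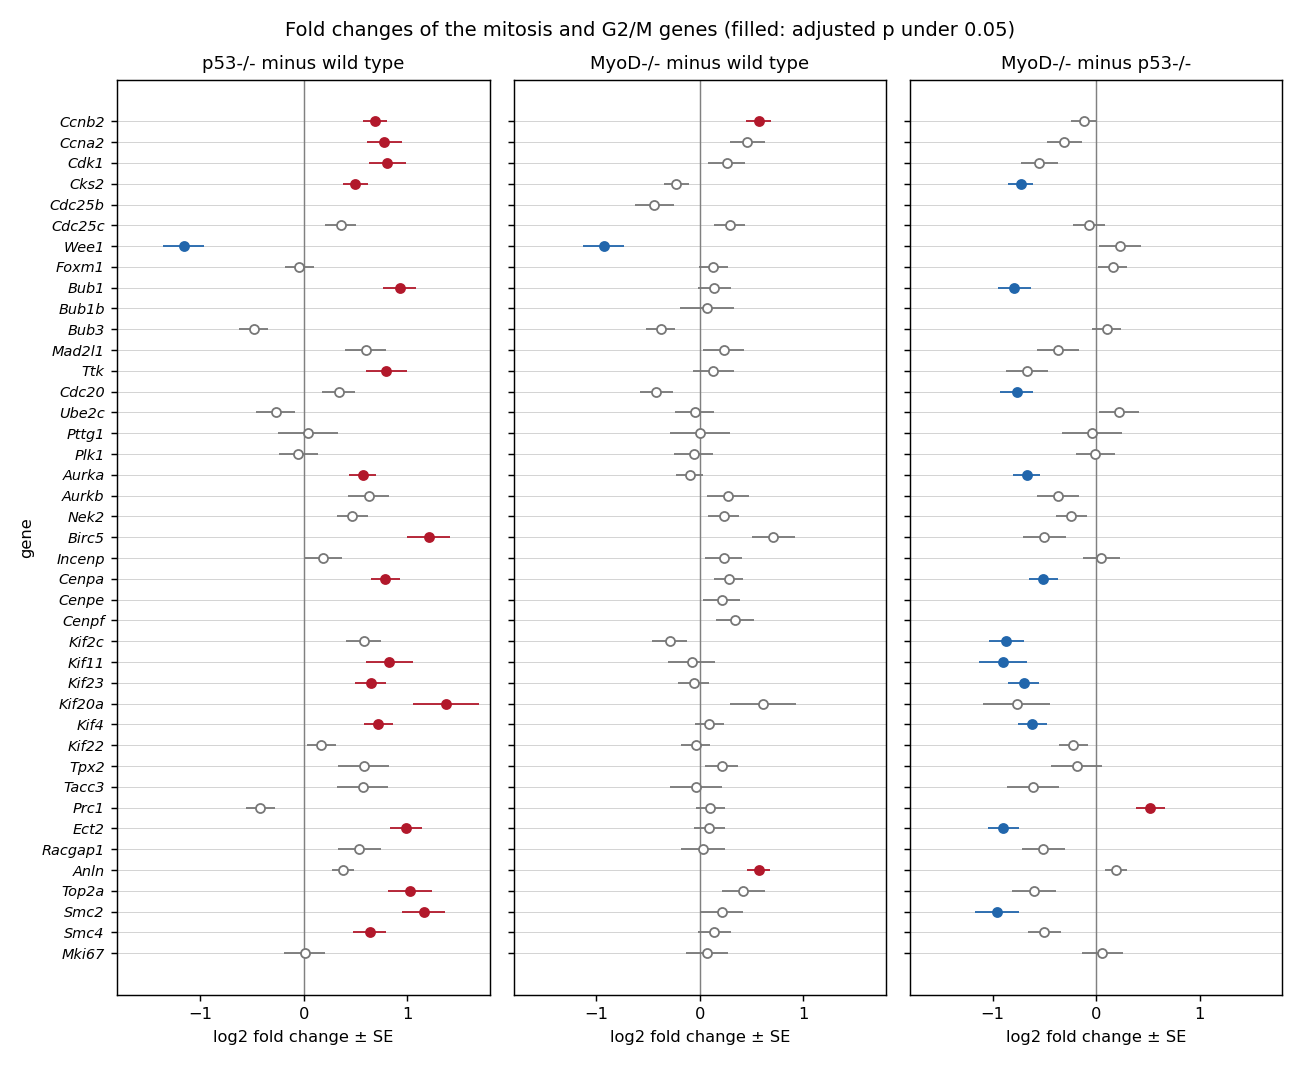
Log2 fold change ± SE of each member on its representative probe set in the 3 comparisons, filled where limma's adjusted p was under 0.05 (red higher, blue lower). In p53-/- 17 members are higher and 1, Wee1, is lower; in MyoD-/- 2 are higher and 1 lower than wild type; MyoD-/- against p53-/- has 11 lower and 1 higher.

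Other cell cycle genes were counted in the same fits, where 6.06% of all genes tested rose and 6.52% fell in p53-/- against wild type. Of 47 further mitosis and G2/M genes tested in p53-/- against wild type, 9 rose and 2 fell, with a median log2 fold change of 0.35. Plk4, which starts centriole duplication, was at 1.10 (adjusted p = 0.00273), the chromatin protein Hmgb2 at 1.14 (adjusted p = 0.00295), Cks1b at 0.90 (adjusted p = 0.00748) and the cytokinesis kinase Cit, on U74Cv2, at 1.57 (adjusted p = 0.0102). Those that fell were Numa1, a spindle pole protein (-0.67, adjusted p = 0.0143), and Ckap2 (-0.79, adjusted p = 0.0322). Of 44 genes of G1/S and DNA replication, 8 rose and 0 fell, with a median of 0.40. Orc6, a subunit of the origin recognition complex (0.79, adjusted p = 0.005), geminin (Gmnn, 1.32, adjusted p = 0.00513), Rfc1 (1.28, adjusted p = 0.00627) and Pcna (0.67, adjusted p = 0.0148) were among them. On leaving out 1 sample these counts ranged from 4 to 12 for the further mitosis genes and from 4 to 16 for the G1/S genes. The further mitosis count was 4 without wild type B or p53-/- A and 5 without p53-/- B or 6 without p53-/- C. The G1/S count was 4 or 5 without any 1 wild type sample or p53-/- A or C, and 16 without MyoD-/- B. Of 13 regulators that bind cell cycle promoters, 3 rose and 0 fell: E2f5 (0.67, adjusted p = 0.0148), Tfdp1 (0.43, adjusted p = 0.0448) and Mybl2, the B-Myb subunit of MMB (0.83, adjusted p = 0.0491). A single one stayed called without any 1 wild type or p53-/- sample.

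In MyoD-/- against wild type the same lists moved little, with 2 higher and 1 lower of 65 further mitosis genes and 1 higher and 0 lower of 46 G1/S genes, while 1 of 18 promoter-binding regulators was higher and 4 were lower. The 4 were Tfdp2 (-1.06), Rbbp4 (-0.68), E2f3 (-0.68) and E2f2 (-1.01). Among all genes tested in MyoD-/- against wild type, 6.15% were higher and 6.83% lower. Cit was represented in this comparison by another, brighter probe set and was not called. Its U74Cv2 probe set, called in p53-/-, gave 2909, 4095 and 4712 in MyoD-/- against 1496, 907 and 1326 in wild type. Its means were 3905 in MyoD-/- and 4038 in p53-/-. On that chip, lot and genotype cannot be told apart against wild type. Between the knockouts, 8.44% of all genes tested were lower and 7.66% higher in MyoD-/-. There, 8 of 47 further mitosis genes were lower and 2 higher, and 11 of 44 G1/S genes were lower and 0 higher, with Orc6 at -0.95 (adjusted p = 0.00137). Without MyoD-/- B those counts of lower genes came to 2 and 5, and without 1 p53-/- sample to 3, 3 and 2 (A, B and C) of the further mitosis genes and to 4, 7 and 6 of the G1/S genes. Without MyoD-/- C the G1/S count was 6.

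**Figure D5:**
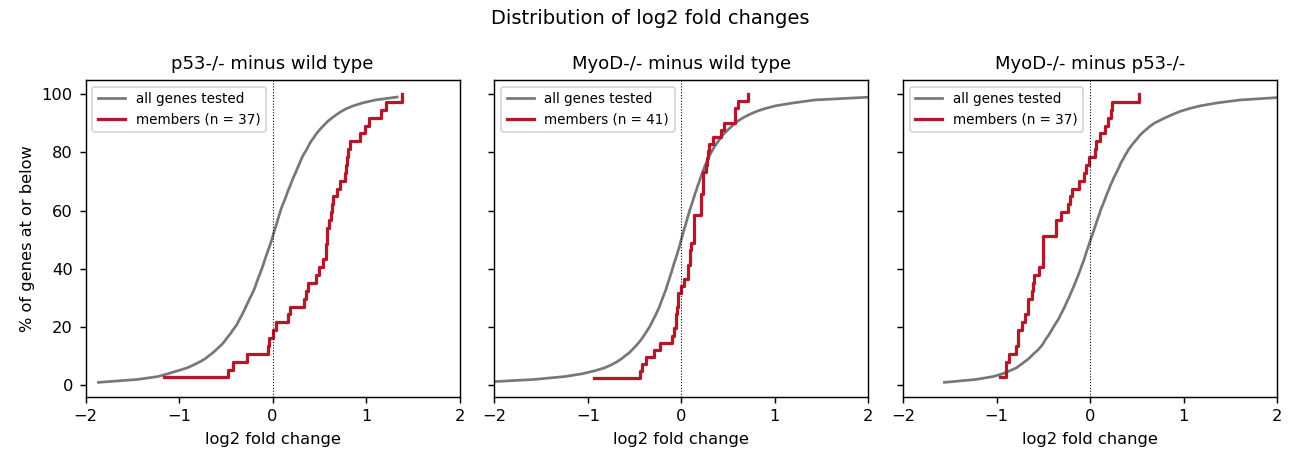
Cumulative share of genes (y axis, percent) at or below a log2 fold change (x axis) for the mitosis and G2/M members (red) and all genes tested (grey) in the 3 comparisons. The members' median is 0.58 in p53-/- and 0.13 in MyoD-/- against wild type and -0.50 between the knockouts, where the grey curves have medians of -0.01 to 0.00.

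Markers of terminal muscle differentiation moved with genotype beside the members. Of 29 such genes tested in p53-/- against wild type, 24 fell and 0 rose (median -2.05), and of 32 in MyoD-/-, 27 fell and 0 rose (median -2.79). Their summed signal over those 29 genes ranged from 178520 to 249936 in wild type, from 39481 to 51929 in MyoD-/- and from 81992 to 90888 in p53-/-. Myogenin (Myog), an early differentiation factor, gave 5980 ± 1922 (SD, n = 3) in wild type against 336 ± 87.8 in MyoD-/- and 1871 ± 1402 in p53-/-. Both knockouts had less of these genes, MyoD-/- least, whereas the members were highest in p53-/-. Of 4 smooth muscle markers, 2 fell in p53-/-, with summed signals of 2599 to 3783 there against 5862 to 20649 in wild type. In MyoD-/- the summed smooth muscle signals were 14262 to 27193. Of 6 fibroblast markers there, 2 rose and 4 were not called and below wild type, with a median of -0.07. The fibroblast genes Col1a1 (2.26, adjusted p = 0.000101) and Twist2 (1.99, adjusted p = 0.00138) and the monocyte receptor Cd14 (1.92, adjusted p = 0.000128) were higher than in wild type and the leukocyte gene Laptm5 (-1.07, adjusted p = 0.0106) was lower, while summed fibroblast signals were 22753 to 23780 against 17796 to 21100 in wild type. In p53-/- they were 12126 to 16727, below every wild type array, with 0 of the 6 markers called. Summed macrophage signals were 12296 to 13834 in MyoD-/- and 11119 to 14384 in p53-/-, against 13605 to 16096 in wild type. The part of any of these lists in the members' values was not tested.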

How the data were processed

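RNA of growing myoblasts was measured on single-colour Affymetrix chips. The deposited values are MAS5 signal intensities, 1 per probe set and array, on a linear scale, per the submitters' processing notes; the sources used here give neither its version nor its settings. The deposited intensities have a 2% trimmed mean close to a common value on every array. Probe sets were named from the platform annotation, and those with several symbols were not used. Each chip type was analysed alone, on the log2 scale after adding an offset, the 20th percentile of its signals (67.2, 146 and 106 for U74Av2, U74Bv2 and U74Cv2), which understates changes of dim genes. Probe sets above the 40th percentile on at least 3 arrays were tested with limma 3.58.1 (statmod 1.5.0, R 4.3.3; eBayes with trend, genotype as the only term, two-sided), and p-values were adjusted by Benjamini-Hochberg over the chips of a comparison. Signals and SDs are on the linear scale, log2 fold changes and SEs on the offset log2 scale. The exact permutation test of 3 samples against 3 cannot go below p = 0.1, so limma's fit across all probe sets was used. The precision is limited by the number of arrays.

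The members and the other gene lists were chosen with earlier results of these data known. Named were Ccnb1, Cdk1, Plk1, Aurkb, Birc5, Top2a, Mki67 and Foxm1, in each comparison the up to 10 called members with the smallest adjusted p, members whose probe sets differed in sign or call, the remaining members to account for the list, and up to 4 called genes of each other list with the smallest adjusted p. Alternatives were other offsets, filters, scalings, adjustments, blocks and samples left out. Shares of all genes called are given for the fit described above and not for the alternatives.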

Additional observations from a re-analysis of the deposited data

How the results depend on the processing

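No member's log2 fold change turned its sign and passed the test under any of the 21 alternatives run. Over all member results and called further probe sets, 2389 values kept their side of the threshold, 98 lost a call and 53 gained one. In p53-/- against wild type the called member probe sets (20) ranged from 11 to 24 and the members called higher (17) from 8 to 20 on leaving out 1 sample, with the median at 0.54 to 0.61; under the other settings these were 17 to 25, 14 to 21 and 0.53 to 0.70. In MyoD-/- against wild type the called probe sets (6) ranged from 3 to 7 and the median (0.13) from 0.03 to 0.28 on leaving out 1 sample, and between the knockouts the called probe sets (13) from 9 to 16 and the median (-0.50) from -0.56 to -0.24. Scaling each array to its median brought the median of all genes from -0.01 to 0.11 in p53-/- against wild type, with the members at 0.70, and to -0.08 between the knockouts, with the members at -0.60 and Prc1 no longer called (adjusted p = 0.0961). The letters did not pair the samples: same-letter deviations on U74Av2 correlated at -0.12 to 0.128. With the letter as a replicate block, 18 probe sets were called in p53-/- (15 genes higher), 6 in MyoD-/- and 12 between the knockouts, and the calls of Kif11 (adjusted p = 0.0697) and Smc4 (0.0521) in p53-/- and of Cenpa (0.0603) and Prc1 (0.0505) between the knockouts were lost. Fewer samples and fewer residual degrees of freedom go with each left-out sample; the cause of the other changes was not tested. The single p53-/- array on U74Bv2 and dim probe sets near the offset limit what can be said of Cenpe, Bub1b, Cenpf and of single low signals.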

Other observations

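The genes that p53 is known to switch on fell in p53-/- beside the rise of mitosis genes. Among all genes tested, 6.52% fell and 6.06% rose. Of the 17 tested genes that p53 switches on, 10 fell and 0 rose, with a median log2 fold change of -1.04. They included Ccng1 (-3.01, limma adjusted p = 1.04e-05), Cdkn1a, the p21 inhibitor of cyclin-dependent kinases (-2.40, adjusted p = 0.000793), Mdm2, the ubiquitin ligase of p53 (-2.05, adjusted p = 0.00109), and Zmat3 (-1.95, adjusted p = 0.00038). Cdkn1a gave 7159 ± 853 (SD, n = 3) in wild type against 5040 ± 1488 in MyoD-/- and 1349 ± 480 in p53-/-, and in MyoD-/- it was not called (-0.54, adjusted p = 0.235). Of 22 such genes tested in MyoD-/-, 6 fell and 1 rose, where 6.83% of all genes tested fell and 6.15% rose. Myod1 itself was lower in p53-/- than in wild type, at 22135 ± 3184 (SD, n = 3) against 40932 ± 3930 (-0.89, adjusted p = 0.00445).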
